A study of Homo sapiens with 13 samples.

Results

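Classical cadherins, their cytoplasmic catenin partners and the intermediate filament protein vimentin were followed in MCF10A cells, an immortalised and non-tumorigenic human breast epithelial line. The genes were CDH1, CDH2, CDH3, CTNNA1, CTNNB1, CTNND1 and VIM, taken by symbol, and all 7 were found among the 38369 gene rows of the deposited tables. All 7 also passed the filter on low values in both experiments. The first experiment used MCF10A-Src cells, which carry a Src kinase made active by tamoxifen. There was 1 library each at 0 h and 12 h of tamoxifen, and there were 2 libraries each at 4 h and 36 h. The second used parental MCF10A cells harvested 72 h after transduction, with 2 libraries of cells transduced with the long intergenic RNA LINC00520 and 3 libraries of untransduced cells. No sample was labelled as cells kept for 36 h without tamoxifen, and the libraries of a control long intergenic RNA were not analysed here. Time in culture and the transduction itself therefore cannot be told apart from Src activation and from LINC00520.

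Classical cadherins span the membrane and bind cadherins on the neighbouring cell. Inside the cell their tails hold p120-catenin, which slows removal of the cadherin from the surface, and beta-catenin, which binds alpha-catenin and through it actin. Beta-catenin not held by cadherins is either degraded by the APC and AXIN complex or acts with TCF and LEF factors in the nucleus. Loss of E-cadherin with gain of N-cadherin and vimentin is the textbook reading of an epithelial to mesenchymal transition, and P-cadherin is the cadherin typical of basal mammary cells, the type MCF10A resembles.

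Levels are given as CPM (estimated fragments scaled to a common library size, after edgeR's TMM scaling), and as the deposited FPKM where genes of different length are compared. Depth ranged from 12.6 to 52.3 M fragments, the lowest being replicate 2 at 36 h, and the smallest member value rested on 148 fragments (CDH2 in that library). The row of LINC00520 held 46.2 and 46 CPM in the transduced libraries, against 0.139, 0.2 and 0.0882 CPM in the untransduced ones. In MCF10A-Src cells, scaled separately, that row held 1.59 CPM at 0 h and 1.56 and 0.934 CPM at 4 h. It held 14.7 CPM at 12 h and 162 and 202 CPM at 36 h. ESR1, which supplies the receptor part of the tamoxifen switch, had 623 to 1560 FPKM in MCF10A-Src libraries and 0.139 to 0.492 FPKM in parental ones. Its value differed between the 4 h replicates, at 1380 and 623 FPKM. The labels give the cell type as breast cancer, and markers of basal breast epithelium summed to between 3490 and 6350 FPKM in every library. Whether replicates were separate cultures is not stated, and p-values therefore cover the spread of these libraries, which may be technical. Also, in bulk RNA fewer cells of a kind and less RNA per cell cannot be told apart.

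In the deposited hg19 positions, the row of CDH1 lay on chromosome 16 at 68771195 to 68871650. The row of CDH3 lay beside it at 68678050 to 68732957, with 38237 bases between the 2 rows. The row of CDH2 lay on chromosome 18 at 25530930 to 25757445, and that of VIM on chromosome 10 at 17256153 to 17280619. The row of CTNNA1 lay on chromosome 5 at 138089107 to 138270722, and that of CTNNB1 on chromosome 3 at 41236401 to 41281965. These are spans of rows and need not match the ends of the genes. CTNND1 shared 1 row with TMX2, a thioredoxin-related membrane protein gene, on chromosome 11 at 57480042 to 57586651, so its values are those of the joint row. Long intergenic rows named as antisense overlapped every member but CTNNA1. Those over CDH1, CDH3, CTNNB1 and VIM had the same start and end as the row of the member. The strand setting was not given in the sources used here, so reads of a gene and of its antisense row cannot be told apart. The antisense rows over CDH2 and CTNND1 were not quantified here, nor added in any alternative. The same holds for C11orf31 and BTBD18 over CTNND1 and LRRTM2 over CTNNA1. The row linc-VIM-AS held 83.9% to 102% as many fragments as VIM in the time course and 92.4% to 98.3% as many in the parental cells. The row linc-CDH1-AS held 34.7% to 49.5% and 54.5% to 58.8% as many as CDH1, while linc-CTNNB1-AS held 9.56% to 27.7% and 1.93% to 2.34% as many as CTNNB1.

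RefSeq promoter entries (GRCh38.p14) were at hand for CDH2, CTNNA1, CTNNB1 and VIM, 4 of the 7 members. The 250 bases before the start are shown for VIM and for the more upstream of the CDH2 entries, the pair of mesenchymal markers whose RNA moved in opposite directions at 36 h. VIM is read from chr10:17227991-17228240 on the plus strand and CDH2 from chr18:28177131-28177380 on the minus strand, and capitals mark GC boxes (GGGCGG on either strand).
VIM: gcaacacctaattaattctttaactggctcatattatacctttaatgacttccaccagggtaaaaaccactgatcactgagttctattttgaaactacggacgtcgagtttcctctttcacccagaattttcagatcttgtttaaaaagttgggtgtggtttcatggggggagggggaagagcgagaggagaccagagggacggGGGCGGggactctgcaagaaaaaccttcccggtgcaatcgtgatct
CDH2: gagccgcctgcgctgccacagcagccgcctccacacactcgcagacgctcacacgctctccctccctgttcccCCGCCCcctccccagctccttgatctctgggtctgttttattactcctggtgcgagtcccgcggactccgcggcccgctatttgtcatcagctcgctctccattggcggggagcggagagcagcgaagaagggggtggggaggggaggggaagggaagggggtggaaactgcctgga
Each of these windows held 1 GC box, 46 bases before the VIM start and 177 bases before the CDH2 start by its first base. A GC box stood in 42.6% of the 35116 promoters searched the same way. The window was 46% G and C for VIM and 66% for CDH2. The other CDH2 entry, at chr18:28036642-28036891 on the minus strand and not shown, was 42% G and C and held no GC box, 1 AP-1 site (TGANTCA) and, overlapping it, 1 E-box of the general form CANNTG. Those motifs stood in 6.57% and 61.8% of all promoters. The E-box bound by Snail and ZEB repressors (CAGGTG or its reverse complement CACCTG) was in none of the windows of the 4 genes, and in 17.5% of all promoters. These matches describe the letters of the windows and nothing more.

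Over the time course the mean CPM of all 3 cadherins was highest at 4 h, and that of vimentin and the CTNND1 row was highest at 36 h. Between 36 h and 4 h, CDH1, CDH2 and CDH3 fell, VIM and CTNND1 rose, and CTNNA1 and CTNNB1 did not pass the test (edgeR's quasi-likelihood test with Benjamini-Hochberg adjustment, threshold 0.05). Those are 5 of 7 members called, where 39.4% of 15572 tested genes were called, 18.8% as higher and 20.5% as lower. The split over all genes depended on scaling. With TMM 2930 genes were higher and 3200 lower, and with the library total alone 1861 were higher and 4823 lower. The median log2 change of all genes was -0.04 with TMM and -0.29 with the library total alone.

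**Figure D1:**
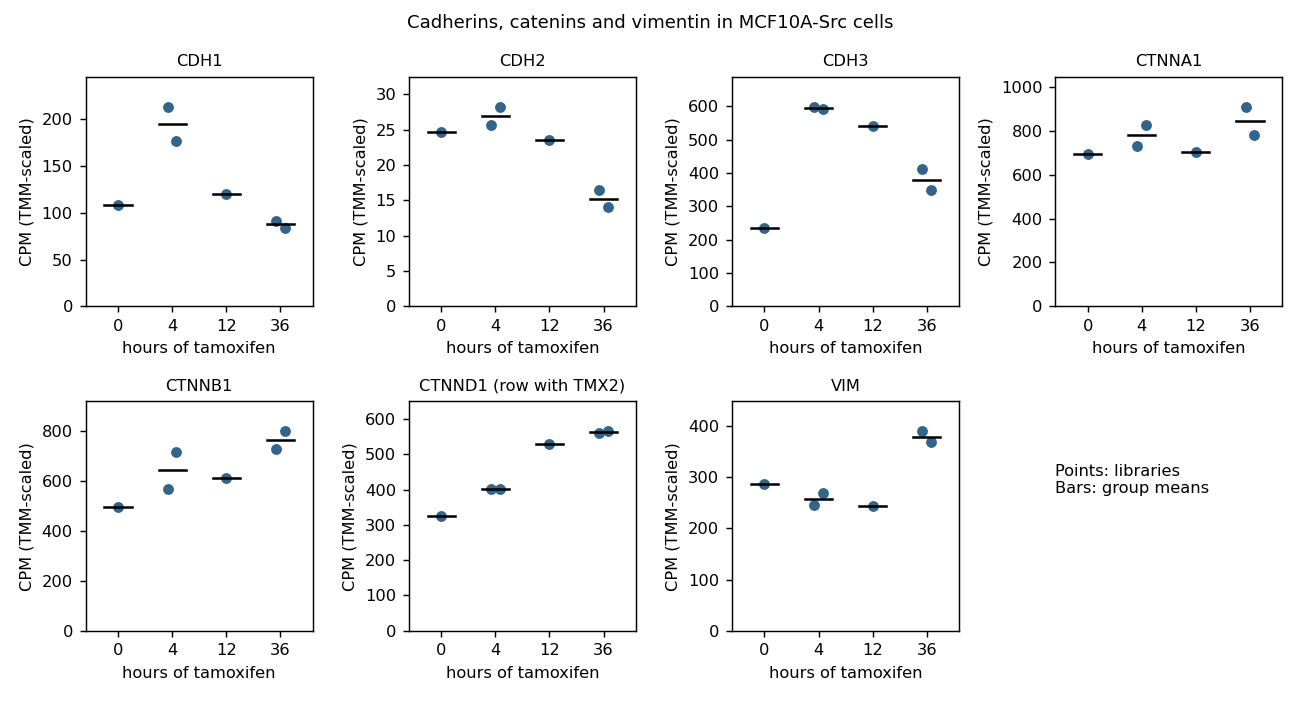
TMM-scaled CPM (vertical axes, each from 0) of the 7 genes against hours of tamoxifen, with 1 point per library and a bar at each group mean. CDH1 peaks at 4 h (213 and 177 CPM), CDH2 is lowest at 36 h (16.4 and 14 CPM), and VIM is highest at 36 h (389 and 369 CPM).

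CDH1, E-cadherin, the main epithelial cadherin, had 108 CPM at 0 h, 213 and 177 at 4 h, 120 at 12 h, and 91.5 and 84.1 at 36 h. Both 4 h libraries stood above all others, and the 36 h libraries stood below the rest. CDH1 at 36 h was 0.451 times its 4 h level (log2 -1.15, SE 0.163, 95% interval -1.53 to -0.77, edgeR adjusted p = 0.00142). This call was kept under all 13 alternatives, with log2 values of -1.41 to -1.01. Against 0 h the change at 36 h did not pass (log2 -0.29, SE 0.194, 95% interval -0.74 to 0.15, edgeR adjusted p = 0.324).

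The rise of CDH1 at 4 h over 0 h was 1.81-fold (log2 0.86, SE 0.203, edgeR adjusted p = 0.0494), at the edge of the threshold. CDH1 and CDH3 were the 2 of 7 members called in that comparison, where 6.24% of all genes were called, 3.15% as higher and 3.09% as lower. Without replicate 1 or replicate 2 at 36 h, which enter the shared estimate of spread, the adjusted p was 0.0609 and 0.0611. With the fragments of linc-CDH1-AS added to CDH1, an alternative chosen after seeing the data, the log2 change was 0.77 and the adjusted p 0.0624. The library total alone gave 0.0909 and limma on log2(FPKM + 1) gave 0.114. In the authors' deposited table CDH1 was significant at 4 h over 0 h, with a q-value of 0.007.

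CDH3, P-cadherin, had 234 CPM at 0 h, 598 and 593 at 4 h, 541 at 12 h, and 412 and 349 at 36 h. Every treated library stood above the 0 h library, and the 36 h libraries stood below the earlier treated ones. Against the single 0 h library CDH3 was higher at 4 h (2.55-fold, log2 1.35, SE 0.206, edgeR adjusted p = 0.0126). It was also higher at 12 h (2.31-fold, log2 1.21, SE 0.226, edgeR adjusted p = 0.0247). At 36 h over 0 h it was higher by log2 0.70 (SE 0.199, edgeR adjusted p = 0.044), where the adjusted p was 0.249 without replicate 1 and 0.0831 without replicate 2 at 36 h, and where the library total alone gave log2 0.35 (adjusted p = 0.214). These 3 comparisons share the 0 h library, which has no replicate and borrows the spread of the replicated times. In the authors' deposited table CDH3 was significant in all 3. By limma on log2(FPKM + 1) none of them passed (adjusted p = 0.0647 at 4 h, 0.102 at 12 h and 0.074 at 36 h). At 36 h CDH3 was 0.639 times its 4 h level (log2 -0.65, SE 0.158, edgeR adjusted p = 0.0146), and without replicate 2 at 36 h the log2 change was -0.53 (adjusted p = 0.162).

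CDH2, N-cadherin, the cadherin of neural and mesenchymal cells, had 24.7 CPM at 0 h, 25.6 and 28.2 at 4 h, 23.6 at 12 h, and 16.4 and 14 at 36 h. The libraries up to 12 h lay close together and both 36 h libraries lay below them. At 36 h it was 0.568 times its 4 h level (log2 -0.82, SE 0.185, 95% interval -1.24 to -0.39, edgeR adjusted p = 0.0106). Without replicate 2 at 36 h the log2 change was -0.71 (adjusted p = 0.114). Against 0 h the 36 h change was log2 -0.69 (SE 0.217) and missed the threshold (edgeR adjusted p = 0.0601), though it passed with the library total alone (log2 -1.04, adjusted p = 0.0147) and without replicate 1 (0.0111) or replicate 2 (0.0181) at 4 h.

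Set side by side per length, CDH3 was the main classical cadherin RNA in every library. It made up 66.1% of the summed FPKM of CDH1, CDH2 and CDH3 at 0 h, 73.7% and 76.2% at 4 h, 80.6% at 12 h, and 80.8% and 79.6% at 36 h. CDH1 made up 26.8% at 0 h, 23.1% and 20% at 4 h, 15.7% at 12 h, and 15.8% and 16.9% at 36 h. The share of CDH3 was thus lowest in the untreated library and that of CDH1 highest there. The summed FPKM of the 3 cadherins was 80 at 0 h, 188 and 185 at 4 h, 155 at 12 h, and 121 and 106 at 36 h.

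**Figure D2:**
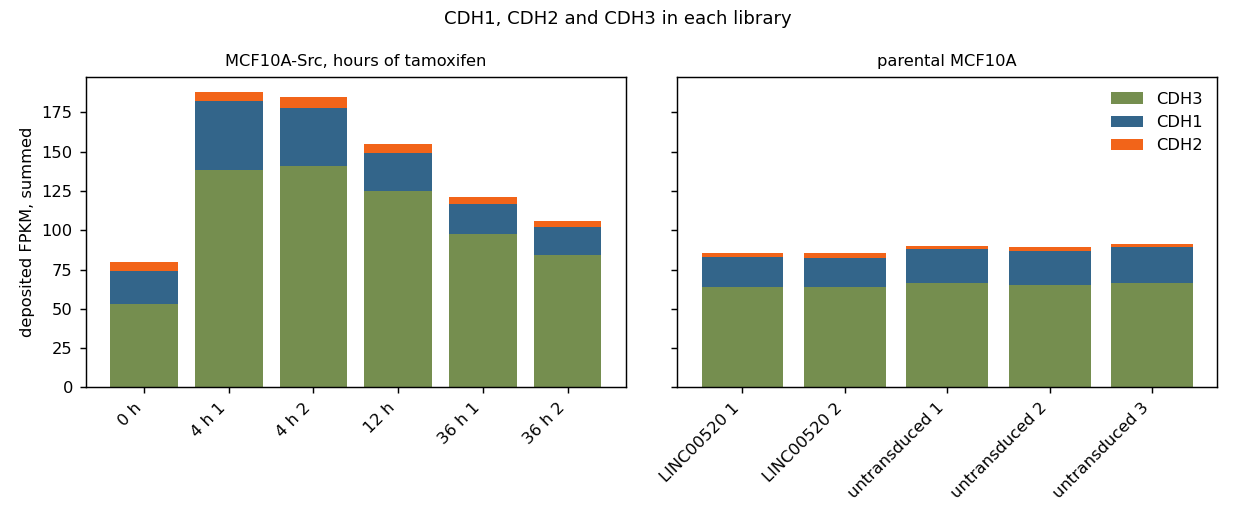
Deposited FPKM of CDH3 (bottom), CDH1 (middle) and CDH2 (top) stacked for each library, with MCF10A-Src cells by hours of tamoxifen on the left and parental cells on the right. The sum is largest at 4 h (188 and 185) and CDH3 is the largest piece of every bar. The panels come from tables scaled separately.

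VIM, vimentin, the intermediate filament protein of mesenchymal cells that cultured epithelial lines also carry, had 286 CPM at 0 h, 246 and 268 at 4 h, 244 at 12 h, and 389 and 369 at 36 h. The 36 h libraries stood above the rest, and the values up to 12 h lay within a narrow band. VIM was 1.47-fold higher at 36 h than at 4 h (log2 0.56, SE 0.147, 95% interval 0.22 to 0.90, edgeR adjusted p = 0.019). It was 1.55-fold higher at 36 h than at 12 h (log2 0.63, SE 0.184, edgeR adjusted p = 0.0458), the only member called there beside a background of 20.9% of genes, 10.3% as higher and 10.5% as lower. Against 0 h the change was log2 0.41 (SE 0.182) and missed the threshold (edgeR adjusted p = 0.158). The authors' deposited table did not call VIM in any pair of times.

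For 36 h over 4 h the adjusted p was 0.149 without replicate 1 and 0.0989 without replicate 2 at 36 h, and the library total alone gave log2 0.31 (adjusted p = 0.126). By limma on log2(FPKM + 1) the adjusted p was 0.0541. For 36 h over 12 h the adjusted p was 0.214 and 0.181 without the same libraries, and against 0 h it passed without replicate 1 (0.0496) or replicate 2 (0.0341) at 4 h. With the fragments of linc-VIM-AS added, 36 h over 4 h was log2 0.47 (edgeR adjusted p = 0.0457). The sum of 8 fibroblast markers was also higher at 36 h, at 87.2 and 103 FPKM, against 41.5 and 47 FPKM at 4 h. That difference was mostly decorin (DCN), the 1 of 2 tested that rose, which averaged 131 CPM at 36 h and 38.9 CPM at 4 h (log2 1.75, edgeR adjusted p = 0.000386). PDGFRA, counted with FIP1L1, did not pass (log2 0.21, edgeR adjusted p = 0.355), and THY1 averaged 0.0958 CPM at 36 h and 0.198 CPM at 4 h. COL1A2 was at 0 in every time-course library, with 1 to 2 of the 8 markers at 0 in each, and COL3A1 reached at most 0.0125 FPKM. The part of DCN or of such cells in the VIM result was not tested. Immune markers, 2 to 3 of 5 at 0 in each library, summed to 13 and 15.7 FPKM at 36 h and 8.41 and 7.33 FPKM at 4 h, where the 1 gene tested, CD14, rose (log2 0.82). Endothelial markers summed to 1.17 and 1.21 FPKM at 36 h and 0.259 and 0.35 FPKM at 4 h, with CDH5 at 0 throughout the time course. KDR made up most of that sum and reached the FPKM filter through the 36 h libraries alone, so no test is given for it.

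Within a library, the ratio of VIM to CDH1 FPKM was 7.48 at 0 h, 3.25 and 4.22 at 4 h, 5.65 at 12 h, and 11.7 and 12.3 at 36 h. It was lowest at 4 h and highest at 36 h. The ratio of CDH2 to CDH1 was 0.267 at 0 h, 0.14 and 0.189 at 4 h, 0.237 at 12 h, and 0.212 and 0.207 at 36 h. The CDH2 ratio was highest in the untreated library, so the 2 mesenchymal genes did not follow the same course relative to CDH1. These ratios are descriptions and carry no test.

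**Figure D3:**
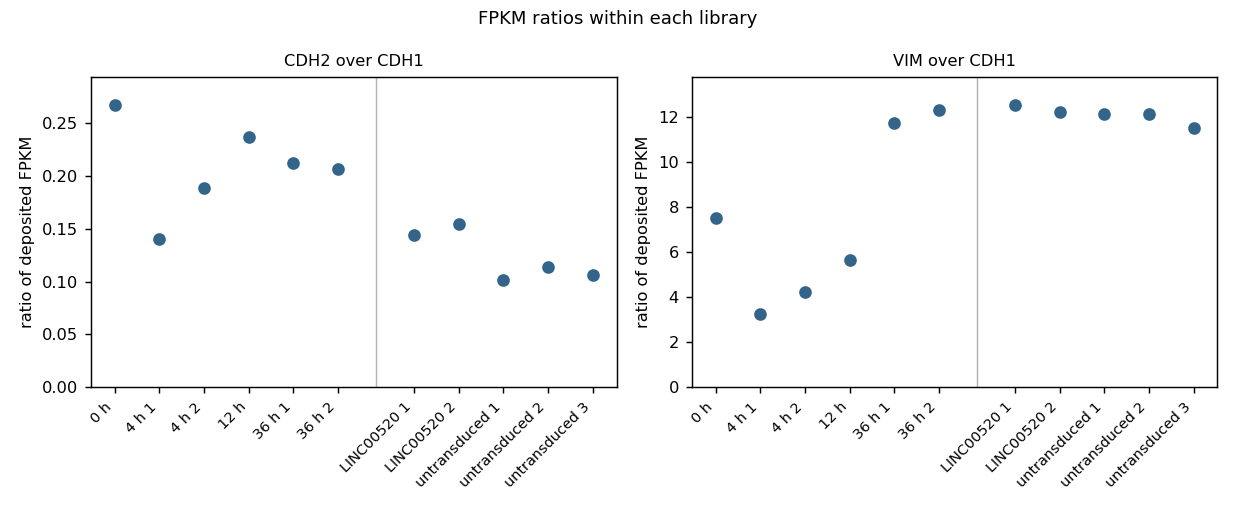
Ratio of CDH2 to CDH1 (left) and of VIM to CDH1 (right) in deposited FPKM, 1 point per library, with the vertical line between MCF10A-Src and parental cells. In MCF10A-Src cells VIM to CDH1 is highest at 36 h (11.7 and 12.3), and CDH2 to CDH1 is highest at 0 h (0.267).

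Among the catenins, CTNND1, which encodes p120-catenin and was counted with TMX2, had 325 CPM at 0 h, 403 and 403 at 4 h, 529 at 12 h, and 561 and 565 at 36 h. In CPM each time stood above the one before. It was 1.4-fold higher at 36 h than at 4 h (log2 0.48, SE 0.146, edgeR adjusted p = 0.0322) and 1.73-fold higher than at 0 h (log2 0.79, SE 0.185, edgeR adjusted p = 0.022). CTNND1 and CDH3 were the 2 members called at 36 h over 0 h, where 19.4% of genes were called, 9.99% as higher and 9.36% as lower. The CTNND1 call there was lost with the library total alone and by limma with either pseudocount (1 or 0.1). Without replicate 1 or replicate 2 at 36 h the adjusted p was 0.18 and 0.193 against 4 h, and 0.0837 and 0.0972 against 0 h. At 12 h over 0 h CTNND1 was at log2 0.70 (edgeR adjusted p = 0.119), and passed without replicate 1 (0.0216) or replicate 2 (0.021) at 4 h.

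In deposited FPKM CTNND1 stood at 86.9 at 0 h, 111 and 119 at 4 h, 141 at 12 h, and 133 and 134 at 36 h, so that 12 h was the highest. The change at 36 h over 12 h was log2 0.09 with TMM, -0.22 with the library total alone and -0.07 by limma, and none passed. By limma on log2(FPKM + 1) the change was 0.22 at 36 h over 4 h (adjusted p = 0.303). The library total alone gave log2 0.23 (edgeR adjusted p = 0.231), and dropping the filter on low values gave 0.44 (adjusted p = 0.0666). CTNND1 was not called in any pair of times in the authors' deposited table. How much of the row came from TMX2 was not tested.

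CTNNB1, beta-catenin, had 494 CPM at 0 h, 568 and 717 at 4 h, 610 at 12 h, and 729 and 798 at 36 h. The 36 h libraries were the highest, by a small margin over replicate 2 at 4 h. At 36 h over 4 h its change was log2 0.25 (SE 0.175, 95% interval -0.15 to 0.65, edgeR adjusted p = 0.291), and 0.48 without replicate 2 at 4 h, where it passed (adjusted p = 0.0369). At 36 h over 0 h it was log2 0.63 (SE 0.219, edgeR adjusted p = 0.0835), and the adjusted p was 0.0133 without replicate 1 and 0.0105 without replicate 2 at 4 h. DESeq2 called that comparison (log2 0.70, adjusted p = 0.0353).

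CTNNA1, alpha-catenin, had 695 CPM at 0 h, 732 and 824 at 4 h, 703 at 12 h, and 907 and 781 at 36 h. The 36 h and 4 h libraries overlapped. Its change was log2 0.12 at 36 h over 4 h (SE 0.165, 95% interval -0.26 to 0.50, edgeR adjusted p = 0.606). With the library total alone both CTNNA1 (-0.14) and CTNNB1 (-0.01) had the opposite sign, neither past the test.

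Per length, CTNNA1 and CTNNB1 together stood above the summed cadherins. Their FPKM sum was 4.25 times that of CDH1, CDH2 and CDH3 at 0 h, 2.02 and 2.46 times at 4 h, 2.51 times at 12 h, and 4.09 and 4.55 times at 36 h. The ratio of these sums was lowest at 4 h, when the cadherin sum was largest. CTNNB1 alone was 1.99 times the cadherin sum at 0 h, 0.986 and 1.24 at 4 h, and 2.05 and 2.5 at 36 h. For CTNNA1 alone the values were 2.26 at 0 h, 1.04 and 1.22 at 4 h, and 2.05 and 2.05 at 36 h. At 12 h CTNNB1 was at 1.31 and CTNNA1 at 1.2. At 36 h the FPKM order was CTNNB1 (248 and 265), CTNNA1 (248 and 217), VIM (224 and 220), CTNND1 (133 and 134), CDH3 (97.8 and 84.4), CDH1 (19.2 and 17.9) and CDH2 (4.07 and 3.71). CTNNA1 overlapped both of its neighbours in that order, and the others were apart.

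Between 12 h and 4 h edgeR called 0 members, where 4.6% of genes were called, 2.96% as higher and 1.64% as lower. The 1 member with an unadjusted p under 0.05 was CDH1 (log2 -0.70, SE 0.202, edgeR adjusted p = 0.103). CDH1 passed there without replicate 1 (adjusted p = 0.0403) or replicate 2 (0.0171) at 4 h. DESeq2 and limma called 0 members. The authors' deposited table called CDH1 between these times, with a q-value of 0.0441. Across times, CDH3 was the member called at 12 h over 0 h, where 4.24% of genes were called, 3.04% as higher and 1.2% as lower. The 36 h comparisons with 12 h gave log2 -0.45 for CDH1, -0.62 for CDH2 and -0.51 for CDH3, with edgeR adjusted p of 0.137, 0.0793 and 0.0939. Those 3 passed with the library total alone and without either replicate at 4 h, with adjusted p between 0.0193 and 0.0393. In the authors' deposited table the cadherins CDH1, CDH2 and CDH3 were significant between 4 h and 36 h, its fold running 4 h over 36 h with log2 values of 1.12, 0.75 and 0.62.

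Cells transduced with LINC00520 were compared with untransduced cells, the second comparison of the design. CDH1, CTNNA1 and VIM fell and CDH2, CTNNB1 and CTNND1 rose, each by a small amount, and CDH3 did not pass the test. That is 6 of 7 members called where 50% of 12790 tested genes were called, 25.2% as higher and 24.8% as lower. The largest change, of CDH2, was log2 0.26. The authors' deposited table called 0 members, with unadjusted p under 0.05 for CDH1 and CDH2 (0.044 and 0.0297).

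CDH1 had 92.5 and 93.1 CPM in LINC00520 cells, against 105, 107 and 112 CPM in untransduced cells. The groups did not overlap. Its log2 change was -0.22 (SE 0.0356, 95% interval -0.29 to -0.14, edgeR adjusted p = 1.97e-05). CDH2 had 11.6 and 12.1 CPM in LINC00520 cells, against 9.23, 10.5 and 10 CPM in untransduced cells. It was 1.2-fold higher (log2 0.26, SE 0.0837, edgeR adjusted p = 0.0111), and the adjusted p was 0.0542 without untransduced replicate 1, 0.0957 without LINC00520 replicate 2 and 0.0797 by DESeq2. By limma on log2(FPKM + 1) it was 0.0606. CDH3 had 278 and 277 CPM in LINC00520 cells, against 290, 283 and 289 CPM in untransduced cells (log2 -0.05, 95% interval -0.11 to 0.01, edgeR adjusted p = 0.145).

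VIM had 432 and 426 CPM in LINC00520 cells, against 476, 488 and 482 CPM in untransduced cells. Both transduced libraries stood below all untransduced ones. Its log2 change was -0.17 (SE 0.0279, edgeR adjusted p = 2.09e-05). With the fragments of the antisense rows added, VIM was at -0.14 and CDH1 at -0.20 on the log2 scale. Vimentin and E-cadherin RNA were thus both lower while N-cadherin RNA was higher. The ratio of VIM to CDH1 FPKM was 12.5 and 12.2 in LINC00520 cells, against 12.1, 12.1 and 11.5 in untransduced cells. The ratio of CDH2 to CDH1 was 0.144 and 0.155 in LINC00520 cells, against 0.101, 0.114 and 0.106 in untransduced cells, a wider gap than for VIM.

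**Figure D4:**
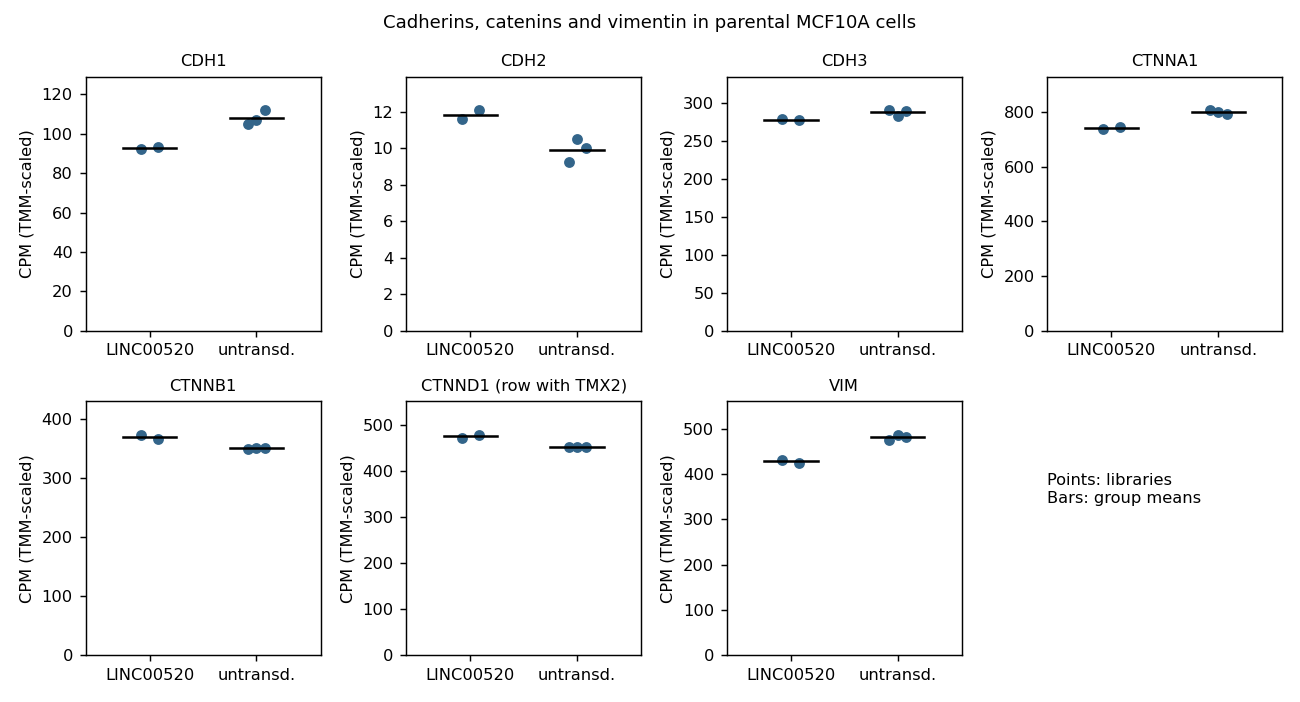
TMM-scaled CPM (vertical axes, each from 0) of the 7 genes in LINC00520 cells (left) and untransduced cells (right), with 1 point per library and a bar at each group mean. The differences are small beside the levels, for example VIM at 432 and 426 CPM in LINC00520 cells against 476, 488 and 482 CPM in untransduced cells.

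CTNNA1 had 739 and 746 CPM in LINC00520 cells, against 807, 801 and 794 CPM in untransduced cells (log2 -0.11, SE 0.027, edgeR adjusted p = 0.00164). CTNNB1 had 373 and 365 CPM in LINC00520 cells, against 348, 350 and 351 CPM in untransduced cells (log2 0.08, SE 0.0279, edgeR adjusted p = 0.0225). CTNND1, with TMX2, had 471 and 479 CPM in LINC00520 cells, against 451, 452 and 451 CPM in untransduced cells (log2 0.07, SE 0.0274, edgeR adjusted p = 0.0286). No catenin group overlapped its counterpart. The CTNNB1 call was lost without untransduced replicate 2 (adjusted p = 0.0518) or 3 (0.0613) and without LINC00520 replicate 1 (0.166), and by limma on log2(FPKM + 1) (0.0883). The CTNND1 call was lost without untransduced replicate 2 (0.0637) or 3 (0.0913) and without LINC00520 replicate 1 (0.0547) or 2 (0.163). Those of CDH1, CTNNA1 and VIM were kept in every alternative run.

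**Figure D5:**
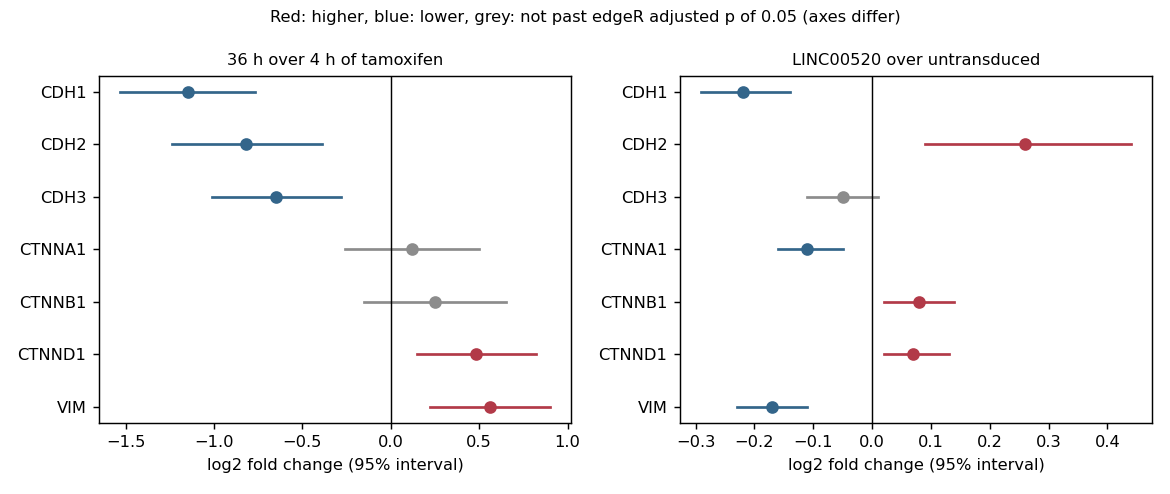
Log2 fold changes with 95% intervals for the 7 genes, 36 h over 4 h of tamoxifen (left) and LINC00520 over untransduced cells (right), on axes of different range. Red marks genes called higher, blue lower and grey not called. CDH1 is lower in both (-1.15 and -0.22), while CDH2 is -0.82 on the left and 0.26 on the right and VIM is 0.56 and -0.17.

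Other genes of the adhesion pathway were taken from lists, with log2 changes at 36 h over 4 h after TMM scaling and beside a median of -0.04 over all tested genes. Counts of listed genes are to be read against the 39.4% of all genes called in that comparison (18.8% higher, 20.5% lower) and the 50% called in LINC00520 cells (25.2% higher, 24.8% lower). Of 17 other cadherins 4 were tested. CDH13, T-cadherin, which has no cytoplasmic tail, rose, averaging 198 CPM at 36 h and 137 CPM at 4 h (log2 0.53, edgeR adjusted p = 0.0254). CDH26 averaged 4.96 CPM at 36 h and 0.0637 CPM at 4 h. It reached the FPKM filter through the 36 h libraries alone (2.44 and 2.46 FPKM, against at most 0.225 FPKM elsewhere), so no test is given for it. CDH11, a cadherin of mesenchymal cells, named after its values were seen, averaged 0.0725 CPM at 36 h and 3.02 CPM at 4 h and was too low to be tested. In LINC00520 cells 2 of 3 tested rose, CDH4 (log2 0.40) and CDH13 (0.15).

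Of 8 other catenins and catenin-binding genes 5 were tested at 36 h over 4 h, and 2 fell, with a median of -0.27. JUP, plakoglobin, the closest relative of beta-catenin, was counted with KRT19 and averaged 128 CPM at 36 h and 223 CPM at 4 h (log2 -0.79, edgeR adjusted p = 0.0145). CTNNBIP1, which blocks beta-catenin from TCF factors, had a log2 change of -0.80 (edgeR adjusted p = 0.0124). At 36 h over 0 h the row of JUP did not pass (log2 -0.11), while CTNNBIP1 was lower (-0.77). In LINC00520 cells 2 of 5 rose and 3 fell, among them the row of JUP (log2 -0.33) and ARVCF (-0.41), a p120-catenin relative, while PKP4 (0.14) and CTNNAL1 (0.13) rose.

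All 18 nectins and actin linkers were tested, and at 36 h over 4 h 3 rose and 6 fell, with a median log2 change of -0.07. That is 9 of 18 called, beside 39.4% of all genes. JUB, the LIM protein ajuba that binds alpha-catenin, averaged 19.9 CPM at 36 h and 188 CPM at 4 h (log2 -3.24, SE 0.197, edgeR adjusted p = 3.2e-05). PVRL4, nectin-4, averaged 28 CPM at 36 h and 4.1 CPM at 4 h (log2 2.76, SE 0.242, edgeR adjusted p = 0.00016). The actin crosslinker ACTN4 (log2 -1.24) and the junction scaffold TJP1 (-0.76) fell. At 36 h over 0 h ACTN4 (-0.50) and TJP1 (-0.08) did not pass, while JUB (-2.15) was lower and PVRL4 (2.17) higher. In LINC00520 cells 6 of the 18 rose and 2 fell, beside 50% of all genes called, with LIMA1 (0.32), PVRL1 (0.27), ACTN1 (0.23) and PLEKHA7 (0.39) higher.

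Of 14 genes for cadherin shedding, ubiquitination, trafficking and dephosphorylation, 3 rose and 2 fell at 36 h over 4 h, with a median of 0.14. That is 5 of 14 called, a share near the 39.4% of all genes. ADAM10, a protease that sheds E-cadherin and N-cadherin, averaged 214 CPM at 36 h and 148 CPM at 4 h (log2 0.53, edgeR adjusted p = 0.0243). ADAM15 (-0.64) and CBLL1 (-0.63), the E-cadherin ubiquitin ligase Hakai, fell, and the endocytic adaptor NUMB (0.52) rose. At 36 h over 0 h ADAM10 (0.38), ADAM15 (-0.41), CBLL1 (-0.46) and NUMB (0.45) did not pass. In LINC00520 cells 6 of 13 rose and 3 fell, with the phosphatases PTPN1 (0.32) and PTPN11 (0.13) and the protease ADAM10 (0.16) higher and the receptor phosphatase PTPRM (-0.29) lower.

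Of the 8 genes of the beta-catenin destruction complex 1 rose and 3 fell at 36 h over 4 h, with a median of -0.36. AXIN2, a scaffold that is itself a beta-catenin target and was counted here with CCDC46, averaged 28.7 CPM at 36 h and 7.66 CPM at 4 h (log2 1.91, SE 0.216, edgeR adjusted p = 0.000504). FAM123B (-1.98), which holds APC at the membrane, the kinase GSK3B (-0.76) and the scaffold AXIN1 (-0.73) fell. Of 14 TCF and LEF factors, cofactors and targets, 8 were tested (median -0.31), with AXIN2 higher and 3 lower, which were the receptor ligase ZNRF3 (-1.51), LEF1 (-1.02) and CCND1 (-0.67). AXIN2 and ZNRF3 are both textbook beta-catenin targets, and the joint row of AXIN2 and CCDC46 moved opposite to ZNRF3. How much of the joint row came from CCDC46 was not tested. In LINC00520 cells APC (0.15) and FAM123B (0.22) rose in the first list. In the second CCND1 (0.48), LEF1 (0.31) and BCL9 (0.23) rose and PYGO2 (-0.21) fell.

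Of 8 intermediate filament genes related to vimentin and cytolinkers, 3 were tested at 36 h over 4 h and 2 rose, with a median of 1.09. MACF1, a linker of actin and microtubules, averaged 2920 CPM at 36 h and 759 CPM at 4 h (log2 1.94, SE 0.175, edgeR adjusted p = 0.000184), and GFAP averaged 2.95 CPM at 36 h and 1.41 CPM at 4 h (log2 1.09, edgeR adjusted p = 0.0389). GFAP reached at most 2.77 FPKM in the time course and was highest in the single 12 h library, at 7.53 CPM. In LINC00520 cells none of 2 tested passed. Of 15 regulators of CDH1 transcription 13 were tested, and 4 rose and 5 fell at 36 h over 4 h. The repressors ZEB2 (1.91) and ZEB1 (1.47) rose. Other genes of the list, named after their values were seen, went both ways. TWIST1 (1.78) rose, and KLF4 (-1.77), TWIST2 (-0.69) and TCF3 (-0.56) fell. At 36 h over 0 h ZEB2 (1.65) and ZEB1 (1.32) were higher and KLF4 (-1.95) lower. TWIST1 (0.68), TWIST2 (-0.78) and TCF3 (-0.31) did not pass there. SNAI1 did not pass at 36 h over 4 h (0.66), and averaged 0.385 CPM at 0 h, 1.92 CPM at 4 h and 3.02 CPM at 36 h. Of the epithelial splicing factors, ESRP2 fell (-1.20) and the more abundant ESRP1, named after its values were seen, rose (0.82), averaging 137 CPM at 36 h and 77.4 CPM at 4 h. OVOL1, 1 of the 5 lower genes, averaged 0.574 CPM at 36 h and 11.1 CPM at 4 h and reached the FPKM filter through the 4 h libraries alone. In LINC00520 cells ZEB1 (0.34) rose and ESRP1 (-0.23) and TWIST1 (-0.19) fell, of 11 tested. SNAI2 averaged 2.7 CPM in LINC00520 cells and 1.5 CPM in untransduced cells and reached the filter through the LINC00520 libraries alone, so no test is given for it.

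Most basal epithelial markers, like CDH1, CDH2 and CDH3, were lower at 36 h than at 4 h. Of 7 tested, 5 fell and 1 rose at 36 h over 4 h (median -0.98). Their FPKM summed to 3800 and 3490 at 36 h, against 6250 and 6350 at 4 h. The sum was 3840 FPKM in the single 0 h library and 4860 FPKM at 12 h, so the 36 h sums lay near that at 0 h. The keratins KRT17 (-1.54) and KRT5 (-1.42) and the basal transcription factor TP63 (-1.39) fell, and the laminin chain LAMB3 (1.50) rose. The part of this change in the cadherin results was not tested. Against 0 h, 3 of the 7 markers were lower at 36 h and 1 was higher, beside 9.36% of all genes lower and 9.99% higher. In that comparison CDH3 was higher (log2 0.70), and CDH1 (-0.29) and CDH2 (-0.69) did not pass. In LINC00520 cells 4 of the 7 rose, with KRT14 at log2 1.44, and the sums were 3980 and 4100 FPKM in LINC00520 cells and 3700, 3570 and 3640 FPKM in untransduced cells. Of the markers of hormone-responsive luminal cells, ESR1 cannot be read in MCF10A-Src cells, where the switch carries its sequence. GATA3 averaged 1.82 CPM at 36 h and 2.8 CPM at 4 h (log2 -0.60, edgeR adjusted p = 0.171), and PGR reached at most 0.00805 FPKM in the time course. In parental cells ESR1, PGR and GATA3 summed to 4.56 and 4.75 FPKM in LINC00520 cells and 5.07, 5.28 and 5.25 FPKM in untransduced cells.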

How the data were processed

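PolyA RNA-seq libraries of MCF10A-Src cells (6) and parental MCF10A cells (5) were used, 11 of 13 samples. No column name matched the 2 control lincRNA samples, which were not analysed here, and 7 libraries of the over-expression table that match no label were not used. Per the submitters' processing notes, CASAVA 1.4, TopHat, Cuffdiff and hg19 were used, while the other versions, the gene annotation and the strandedness are not given in the sources used here. Per the file headers, the authors' deposited tables hold an estimated count of fragments and an FPKM per gene and library. Of the fragment values, 92.4% to 99.9% per library were whole (tolerance 1e-09). The authors' deposited comparison tables hold p-values and q-values and a fold column, on the log2 scale in the over-expression table. In the time-course table that deposited column reached sizes beyond a log2 scale for some genes and was treated as a score, printed here only for members, where it lay near log2 of the ratio of deposited FPKM.

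Estimated counts were rounded and tested with edgeR 4.0.16 (R 4.3.3, TMM, glmQLFit, glmQLFTest, Benjamini-Hochberg, threshold 0.05, two-sided), with 1 coefficient per group and 1 shared estimate of spread per experiment. Genes needed FPKM no lower than 1 in 1 library (time course, 15572 genes) or in 2 libraries (over-expression, 12790 genes), and status OK throughout. The common coefficient of variation was 0.162 with 2 residual degrees of freedom in the time course and 0.0249 with 3 in the parental cells. The script was tested on simulated data. SE is the absolute log2 fold change over the square root of F, and intervals are 95%. Alternatives used limma 3.58.1 and DESeq2 1.42.0, with tables made in Python 3.11.15 (pandas 2.3.3, numpy 2.4.6, matplotlib 3.10.9). The LINC00520 row was taken as linc-TBPL2-2. All 7 members were named, with up to 4 genes of smallest p per list among those called in either 36 h over 4 h or LINC00520 over untransduced cells, and the 3 genes of nearest time-course pattern per member. Members and the 13 lists were chosen with earlier results of these data known.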

Additional observations from a re-analysis of the deposited data

How the results depend on the processing

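Counts of members called are given first, then counts of all genes, under each setting that changed them by over 1.5 times. For 36 h over 4 h the 5 members called became 3 with the library total alone and 3 by limma with either pseudocount (1 or 0.1). Leaving out 1 library gave 1 to 6 members and 3652 to 7360 of all genes, against 6130, the fewest members (CDH1 alone) without replicate 2 at 36 h. For 36 h over 0 h the 2 members became 1 with the library total alone and 0 by limma with either pseudocount, and 0 to 5 with 1 library left out. All genes there numbered 3014, and 4756 with the library total alone, 5066 without the FPKM filter, 1554 and 1320 by limma with pseudocounts 1 and 0.1, and 1923 to 6058 with 1 library left out. For 12 h over 0 h limma gave 0 members against 1, leaving out 1 library gave 1 to 2, and all genes numbered 661, against 1717 without the filter, 223 and 252 by limma, and 776 to 2708 with 1 library left out. For 4 h over 0 h the 2 members became 1 with the library total alone, 1 with the overlapping rows added and 0 by limma with either pseudocount, and 1 to 2 with 1 library left out. All genes there numbered 972, against 2794 without the filter, 180 and 158 by limma, and 1101 to 4288 with 1 library left out. For 12 h over 4 h the 0 members became 1 without the filter (CDH1) and 0 to 1 with 1 library left out, and all genes numbered 716, against 1768 without the filter, 43 and 55 by limma, and 811 to 3128 with 1 library left out. For 36 h over 12 h the 1 member became 3 with the library total alone, 0 without the filter, 0 by limma with either pseudocount and 0 to 4 with 1 library left out. All genes there numbered 3250, against 1090 and 648 by limma and 1544 to 6407 with 1 library left out. For LINC00520 over untransduced cells no setting moved the counts that far, and leaving out 1 library gave 4 to 5 members and 4841 to 6311 of all genes. Signs turned only for values that did not pass in the analysis as reported, though CTNNB1 at 36 h over 4 h passed without replicate 2 at 4 h (0.48, adjusted p = 0.0369). With the library total alone, CTNNA1 was at -0.14 (36 h over 4 h), -0.07 (36 h over 0 h), -0.02 (12 h over 0 h) and -0.05 (36 h over 12 h), CTNNB1 at -0.01 (36 h over 4 h) and CTNND1 at -0.22 (36 h over 12 h). That setting moved the median of all genes to -0.29, -0.43 and -0.33 at 36 h over 4 h, 0 h and 12 h. By limma with either pseudocount CDH2 was at 0.01 (12 h over 0 h) and CTNND1 at -0.07 (36 h over 12 h), and with 1 library left out CTNNB1 was at -0.23 to 0.13 and VIM at -0.13 to 0.02 (12 h over 4 h), above 0 only without replicate 2 at 4 h. The cause was not tested. Replicate numbers were used as names, with no pairing in the analysis as reported. Same-numbered libraries correlated by 0.102 and 0.102 (time course) and -0.0566 and -0.0468 (parental cells) in their deviations from group means. With 2 libraries each at 4 h and 36 h the 2 time-course values are equal by construction. With only 2 pairs per experiment these values cannot settle whether same-numbered libraries belong together. A replicate block left 5 members and 6453 genes called at 36 h over 4 h. In LINC00520 over untransduced cells the block left 4 members and 5500 genes, CTNNB1 (adjusted p = 0.127) and CTNND1 (0.171) no longer passing. Settings chosen after seeing the data were the 4 h and 36 h libraries alone, which kept 5 members, and the added overlapping rows. Genes of the lists were fitted with TMM alone. The shallowest library, replicate 2 at 36 h, holds 12.6 M fragments.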

Other observations

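The time-course patterns nearest to each member, as the root mean square distance of centred log2(CPM + 1) over the 6 libraries among 10853 genes, are listed as descriptions that say nothing of shared function. Nearest to VIM was ADAM10 at 0.0194, then BIRC6 at 0.0249 and RNF169 at 0.0252, where the median distance of all genes from VIM was 0.402 and 140 genes lay within 0.1. Nearest to CDH1 were TRAF3IP3 at 0.0452, ZNF71 at 0.0569 and C10orf2 at 0.063, with 9 genes within 0.1. Nearest to CDH3 was PVR at 0.0641, the poliovirus receptor of the nectin-like family, then RAB3IL1 at 0.0848 and MFHAS1 at 0.104, and only 2 genes lay within 0.1. Nearest to CDH2 were FAM73B at 0.0486, SHMT1 at 0.0498 and TEX2 at 0.0532. For the catenins the nearest were OTUD7B, CALCOCO1 and ZBTB17 (CTNNA1, at most 0.0426), FAM176B, NRAS and WIBG (CTNNB1, at most 0.0388) and FAM113A, C7orf28A and DHX38 (CTNND1, at most 0.0682). The 4 h and 36 h pairs and single 0 h and 12 h libraries are all the points behind these distances.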
